A study of Homo sapiens with 14 samples.

Results

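The genes of ID1, ID2 and ID3, the inhibitors of DNA binding, and of TCF3, TCF4 and TCF12, the E proteins that these inhibitors hold, were followed in RS4;11 cells given dexamethasone, a synthetic glucocorticoid. Every probe set of the array that the platform annotation assigns to exactly 1 gene, that gene being 1 of these 6, was taken, without regard to its values. This gave 26 probe sets of 6 genes out of 19070 single-gene probe sets of 11963 genes: 1 for ID1, 2 for ID2, 1 for ID3, 13 for TCF3, 7 for TCF4 and 2 for TCF12. A probe set is a group of short oligonucleotides on the array that read the same stretch of a transcript, and its value is a log2 expression value without an absolute unit. Changes are therefore taken between samples for the same probe set. Levels of different probe sets serve only as a rough guide, to call a probe set dim or bright and to describe markers of cell types.

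RS4;11 is an established human line of B-cell precursor acute lymphoblastic leukemia that carries a KMT2A rearrangement. All cells were first deprived of hormone for 2 days in serum stripped with charcoal and dextran. The untreated group has 4 arrays, cells in 10 nM dexamethasone for 8 h have 5 arrays and cells in 10 nM dexamethasone for 24 h have 5 arrays. By the labels there were 5 runs spread over 4 days, with runs 1 and 2 sharing day 1 and no untreated array in run 5, and nothing says that the replicates are more than separate cultures of this 1 line. No untreated cells were collected after 8 h or 24 h more in culture, so drug and time in culture cannot be told apart. In bulk RNA, fewer cells of a kind and less RNA per cell cannot be told apart either.

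E proteins are transcription factors of the basic helix-loop-helix class. They bind DNA as dimers at short sites called E-boxes, and in B-cell precursors they switch on the genes of the pre-B cell receptor, of V(D)J recombination and of B-lineage commitment. ID proteins have the helix-loop-helix through which E proteins pair but lack the basic region that touches DNA, so a dimer of an ID and an E protein cannot bind an E-box. The ratio of E protein to ID protein is known to set E-box activity in developing lymphocytes. The arrays measure RNA and give neither protein nor dimer.

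The stretches upstream of the 3 ID genes are shown because ID2 rose and ID3 fell in the same cells, while ID1 stayed dim. Each is the 250 bases before the annotated start in RefSeq (GRCh38.p14), written 5′ to 3′ on the strand of the gene, with E-boxes (CANNTG) in capitals.
ID2 chr2:8681806-8682055 (plus strand): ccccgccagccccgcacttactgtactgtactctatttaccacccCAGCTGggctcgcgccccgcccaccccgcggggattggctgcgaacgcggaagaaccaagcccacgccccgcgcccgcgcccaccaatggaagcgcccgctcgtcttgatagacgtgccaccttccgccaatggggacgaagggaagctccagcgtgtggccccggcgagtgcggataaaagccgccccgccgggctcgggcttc
ID3 chr1:23559502-23559751 (minus strand): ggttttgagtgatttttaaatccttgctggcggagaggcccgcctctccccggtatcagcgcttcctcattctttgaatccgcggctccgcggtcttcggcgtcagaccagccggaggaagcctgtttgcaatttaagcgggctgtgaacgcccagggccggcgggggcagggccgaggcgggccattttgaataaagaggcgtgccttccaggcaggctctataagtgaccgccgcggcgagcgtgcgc
ID1 chr20:31605039-31605288 (plus strand): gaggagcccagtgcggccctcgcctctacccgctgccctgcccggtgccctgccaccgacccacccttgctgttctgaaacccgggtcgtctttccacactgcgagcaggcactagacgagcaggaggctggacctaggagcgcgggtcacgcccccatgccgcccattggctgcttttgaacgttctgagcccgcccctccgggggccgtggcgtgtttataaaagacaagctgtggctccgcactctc
The ID2 window held 1 E-box, CAGCTG, 205 bases before the start, whereas the ID3 and ID1 windows held none. Among 35116 promoter windows of this length, 61.8% held at least 1 E-box. The single-repeat site of the glucocorticoid receptor (AGAACA or TGTTCT on the strand shown) was in 12.4% of the windows, and of these 3 genes only ID1 had such a match, 180 bases before its start. These matches describe letters in a short window. Binding was not measured in the arrays. ID2 lies on chromosome 2 from 8682056 to 8684461, ID3 on chromosome 1 from 23557926 to 23559501 and ID1 on chromosome 20 from 31605289 to 31606510. The E protein genes are far longer: TCF3 lies on chromosome 19 from 1609292 to 1652615, TCF4 on chromosome 18 from 55222185 to 55635957 and TCF12 on chromosome 15 from 56918090 to 57291310.

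The array medians lay between 6.03 and 6.11 in all 3 groups. Of 8 markers of precursor B cells, 7 had a single-gene probe set. Their mean level per array was 9.811 to 9.878 in untreated cells, 9.502 to 9.647 at 8 h and 9.625 to 9.852 at 24 h. The 8 h arrays thus lay below the untreated range, a difference that was not tested. In untreated cells PAX5 read 12.70, VPREB1 12.88 and MME, the gene of CD10, 5.47. Of 6 markers of T and NK cells, 5 had means below 5 in each group and NKG7 was the exception at 8.39 to 8.77. Of 5 measured monocyte and granulocyte markers, 4 had means below 5 in each group. The 3 measured markers of erythroid cells and platelets had a mean level per array between 5.28 and 5.75. For each of these lists of other cell types, the highest mean level of a treated array lay below the highest of an untreated array.

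ID2 rose and ID3 fell within 8 h of dexamethasone, and ID1 stayed at a dim level. Calls are those of limma with a Benjamini-Hochberg adjusted p below 0.05 over the 19070 probe sets. Of the 26 probe sets, 3 were called higher at 8 h, where 7.75% of all probe sets were, and 7 were called lower, where 9.13% of all were. At 24 h, 5 were called higher against a background of 18.5% and 8 were called lower against 18.6%. From 8 h to 24 h, 5 were called higher against 13.3% and 0 were called lower against 11.7% (0 also at an unadjusted p below 0.05 in limma). The groups did not overlap for 8 probe sets at 8 h (16.4% of all probe sets), for 13 at 24 h (32.4%) and for 3 between 8 h and 24 h (20.3%). With run as a block, which raises the calls over all probe sets at the last step to 33.7%, the count called higher from 8 h to 24 h was 9, and without run 5 it was 3.

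**Figure D1:**
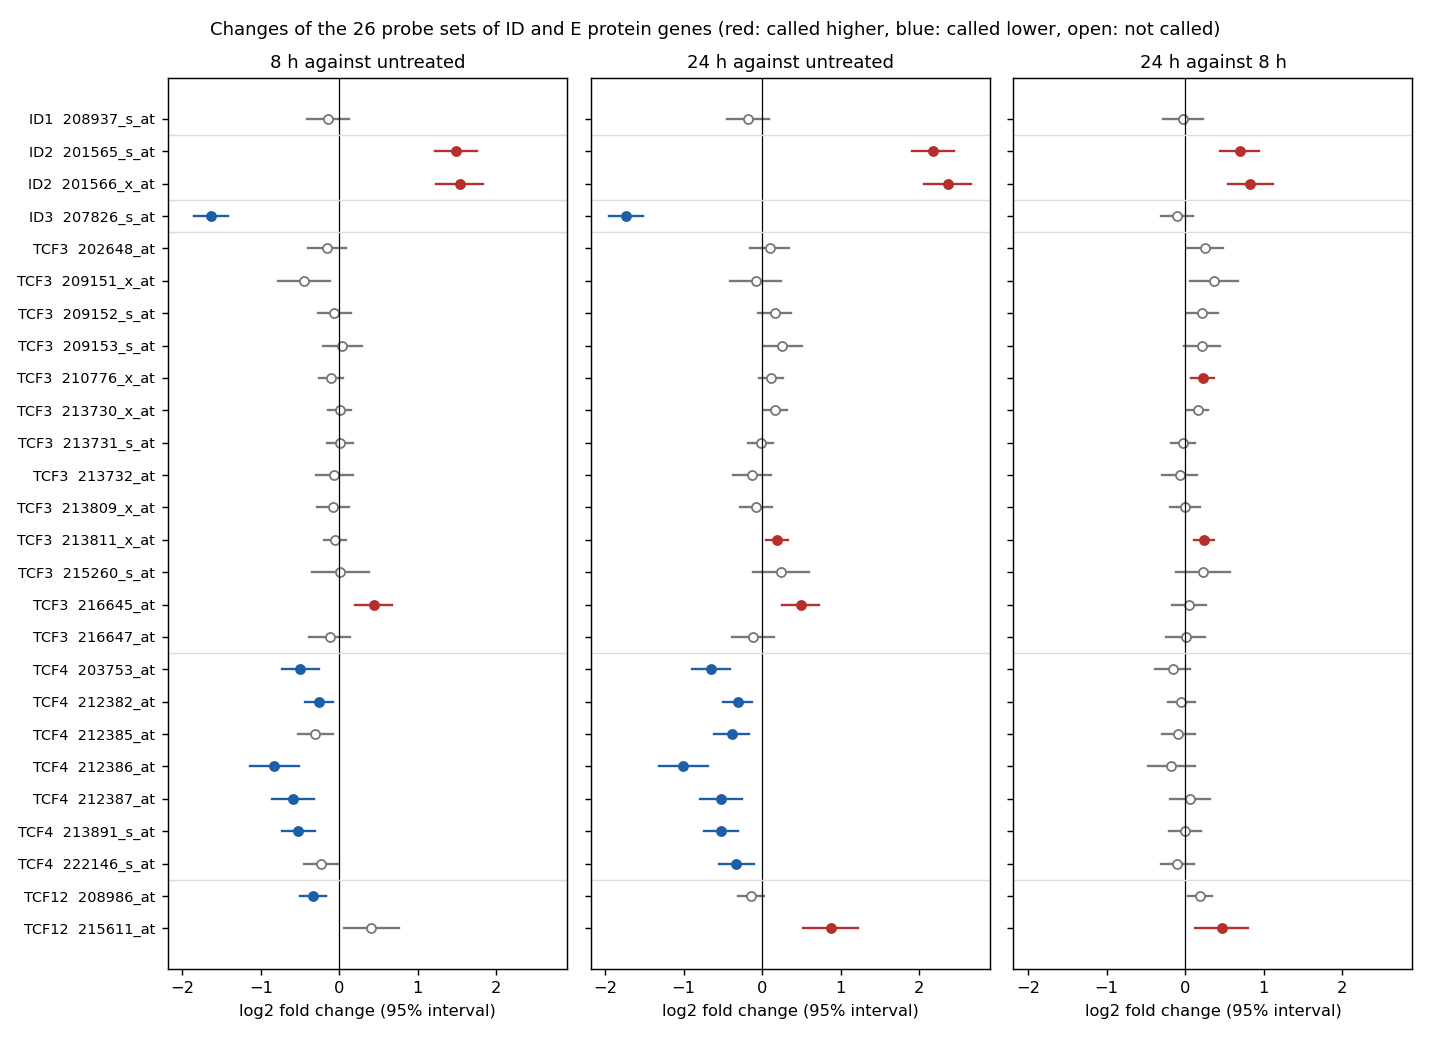
Log2 fold change of each of the 26 probe sets, with 95% intervals from limma, for 8 h against untreated, 24 h against untreated and 24 h against 8 h. Filled red points were called higher, filled blue points lower and open points were not called. The ID2 probe sets lie farthest to the right and ID3 farthest to the left in the first 2 panels, all 7 TCF4 probe sets lie left of 0 there, and the 13 TCF3 probe sets gather around 0.

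ID2 is the family member that, as background, restrains E proteins in lymphoid cells and is needed for innate lymphoid and NK cell development. On 201565_s_at its log2 values were 8.55, 8.65, 9.17 and 8.33 in the untreated replicates. They were 10.15, 10.32, 10.15, 10.12 and 10.02 at 8 h. They were 10.88, 10.96, 10.91, 10.70 and 10.80 at 24 h. Every array at 8 h was above every untreated array and every array at 24 h was above every array at 8 h. The rise was 1.48 at 8 h (SE 0.126, 2.79-fold, adjusted p = 4.33e-07, limma) and 2.17 at 24 h (SE 0.126, 4.51-fold, adjusted p = 9.65e-10). The further step from 8 h to 24 h was 0.70 (SE 0.119, adjusted p = 0.000365).

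The other ID2 probe set, 201566_x_at, gave the same order of groups. Its untreated values were 6.43 to 7.32, those at 8 h were 8.10 to 8.47 and those at 24 h were 8.96 to 9.22, again without overlap. The fitted changes were 1.53 at 8 h (adjusted p = 1.16e-06), 2.36 at 24 h (adjusted p = 1.51e-09) and 0.83 from 8 h to 24 h (adjusted p = 0.000213). The Pearson correlation of the pair of probe sets over the 14 arrays was 0.987, which describes arrays that share their RNA and gives no test. Untreated replicate 3 was the highest of its group on both probe sets, at 9.17 and 7.32, and without it the 8 h rise was 1.64 on 201565_s_at and 1.72 on 201566_x_at.

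ID3 has been described as a brake on growth and on E protein activity in B cells. Its probe set 207826_s_at read 10.78, 10.88, 10.92 and 10.50 in the untreated replicates. At 8 h the values were 9.26, 9.31, 8.88, 9.15 and 9.08. At 24 h they were 9.10, 9.21, 8.91, 8.97 and 8.98. All treated arrays lay more than 1 log2 unit below the lowest untreated array, and the 8 h and 24 h arrays overlapped. ID3 fell by 1.64 at 8 h (SE 0.102, 3.11-fold lower, adjusted p = 1.03e-08, limma) and stood 1.74 below untreated cells at 24 h (3.33-fold lower, adjusted p = 1.14e-09). The step from 8 h to 24 h was −0.10 with a 95% interval from −0.31 to 0.10 (adjusted p = 0.543).

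ID1 is best known as an early target of BMP signalling. Its only probe set, 208937_s_at, was dim in each group. Untreated replicates read 3.72, 3.89, 3.86 and 3.72, those at 8 h 3.68, 3.96, 3.35, 3.72 and 3.54, and those at 24 h 3.86, 3.73, 3.23, 3.74 and 3.54. The groups overlapped, and replicate 3 gave the lowest value at both treated times. The differences were −0.15 at 8 h (95% interval −0.41 to 0.12, adjusted p = 0.535) and −0.18 at 24 h (−0.44 to 0.09, adjusted p = 0.328). Its mean was below 5 in every group, and without detection calls it is unknown whether so dim a probe set could show a fall.

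**Figure D2:**
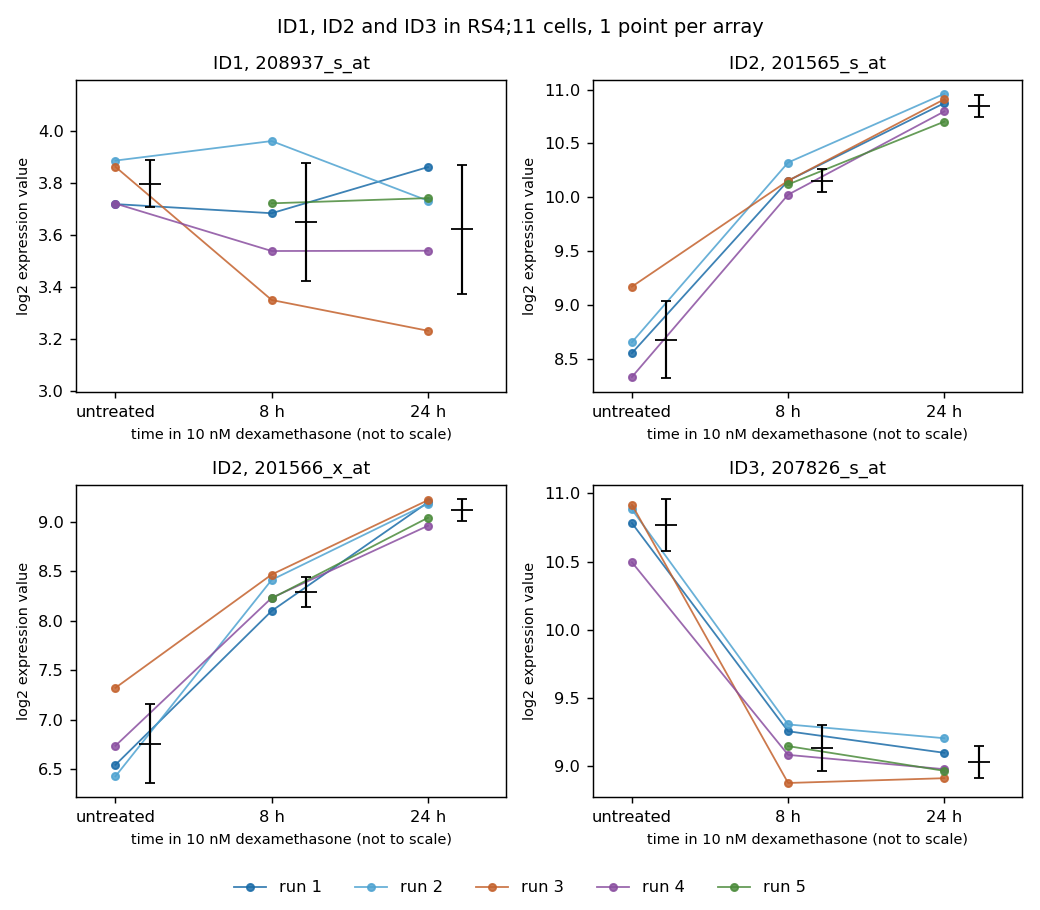
Log2 expression values of ID1, both ID2 probe sets and ID3 on every array, with lines joining the arrays of a run and black bars at the mean ± SD of each group (4 untreated, 5 at 8 h and 5 at 24 h). The axes differ in range between panels. ID2 climbs in 2 steps on both probe sets, ID3 drops by 8 h to between 8.88 and 9.31 and stays there, and ID1 stays between 3.23 and 3.96.

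Whether the ID genes differed in their response was tested on the difference between a pair of genes within each array, with the probe sets of a gene averaged. The permutation exchanged arrays between groups without regard to run, so its p-values do not use the pairing by run. The changes of ID2 and ID3 differed by 3.14 log2 units at 8 h and by 4.01 at 24 h (exact two-sided permutation test, p = 0.0159 for each, the smallest that 5 against 4 arrays can give, adjusted p = 0.0179 over 9 tests). Within runs the difference was 3.01 to 3.41 at 8 h and 3.83 to 4.21 at 24 h, in the same direction in 4 of 4 runs. The change of ID2 exceeded that of ID1 by 1.65 at 8 h and 2.45 at 24 h (exact permutation test, adjusted p = 0.0179 for each). Since the dim ID1 probe set may be unable to show a fall, the differences between ID1 and ID3, 1.49 and 1.56, restate the fall of ID3 and do not show that these genes responded differently. In the late step ID2 moved apart from ID3 by a further 0.87 and from ID1 by 0.79 (exact permutation test, p = 0.00794, adjusted p = 0.0179). For ID1 and ID3 the late difference was 0.07 (exact permutation test, p = 0.468).

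TCF4, also called E2-2, is the E protein that drives plasmacytoid dendritic cells and is present in B-cell precursors. Its RNA was lower after dexamethasone. Of its 7 probe sets, 5 were called lower at 8 h, beside 9.13% of all probe sets, and 7 at 24 h, beside 18.6%. The median changes were −0.50 and −0.53 beside −0.02 and −0.01 over all probe sets. None was called in the step from 8 h to 24 h (0 at an unadjusted p below 0.05 in limma), beside 13.3% higher and 11.7% lower. The 7 probe sets read 1 gene in the same RNA and are not replicates of each other, and 4 of them had means below 5 in every group.

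The TCF4 probe set with the highest mean, 212386_at, read 6.67, 6.67, 6.26 and 6.15 in untreated cells. After 8 h the readings were 5.78, 5.86, 5.75, 5.43 and 5.20, and after 24 h 5.38, 5.73, 5.44, 5.24 and 5.36. Every treated array was below every untreated array, and the treated times overlapped. The fall was 0.83 at 8 h, or 1.78-fold (SE 0.147, adjusted p = 0.00076, limma), and the level at 24 h was 2.01-fold below that of untreated cells (SE 0.147, adjusted p = 3.8e-05). Taken within day 1 the change at 8 h was −0.85 (adjusted p = 0.00348) and within days 2 to 4 it was −0.74 (adjusted p = 0.00459).

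203753_at ranged from 4.88 to 5.44 without treatment, from 4.52 to 4.83 at 8 h and from 4.29 to 4.72 at 24 h, and 213891_s_at read 4.97 to 5.33, 4.37 to 4.86 and 4.53 to 4.75. For both, no treated array reached the untreated range. Their changes at 8 h were −0.50 (adjusted p = 0.0056) and −0.52 (adjusted p = 0.0015), and at 24 h −0.66 (adjusted p = 0.000194) and −0.53 (adjusted p = 0.000482). Among the 4 dimmer probe sets, 212387_at changed by −0.59 at 8 h (adjusted p = 0.00357) and −0.53 at 24 h. 212382_at at 8 h, with −0.26 and an adjusted p of 0.0495, lost its call in 18 of 28 other settings, the run block among them (−0.25, adjusted p = 0.0637). 212385_at was not called at 8 h (−0.31, adjusted p = 0.061) but was with run as a block (−0.29, adjusted p = 0.0295). 222146_s_at was called at 24 h alone (−0.33, adjusted p = 0.0211), and that call was lost without untreated replicate 2, without untreated replicate 3 or without 24 h replicate 4 (adjusted p = 0.085, 0.056 and 0.0534). All 21 pairs of TCF4 probe sets correlated positively over the 14 arrays, with r from 0.477 to 0.92.

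TCF12, also called HEB, is the E protein best known for its part in T-cell development. Against untreated cells its 2 probe sets moved in opposite directions at 8 h and at 24 h. With group as the only term in limma, at neither time were both called. With run as a block both were called at 24 h, 208986_at lower and 215611_at higher (0.89, adjusted p = 0.000504). No single direction against untreated cells can therefore be given for the gene. From 8 h to 24 h both changes were above 0, at 0.19 and 0.47. Untreated arrays of 208986_at read 12.37, 12.25, 12.38 and 12.29. Those at 8 h read 11.80, 11.89, 12.16, 12.15 and 11.93 and those at 24 h read 12.16, 12.10, 12.20, 12.24 and 12.17. It was lowest at 8 h and had come part of the way back at 24 h, and neither treated group overlapped the untreated one. The change was −0.34 at 8 h (SE 0.078, adjusted p = 0.00621, limma) and −0.15 at 24 h (adjusted p = 0.171). With run as a block the 24 h value was −0.18 (adjusted p = 0.0419) and the step from 8 h to 24 h, 0.19, had an adjusted p of 0.024 in place of 0.0731. Within day 1 the change at 8 h was −0.47 (adjusted p = 0.00921) and within days 2 to 4 it was −0.25 (adjusted p = 0.0706).

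The other TCF12 probe set, 215611_at, read 6.0, 6.47, 6.28 and 5.96 without treatment. At 8 h it read 6.41, 6.34, 6.95, 6.64 and 6.58, and at 24 h 7.22, 6.54, 7.38, 6.88 and 7.24. At 24 h every array lay above the untreated range, whereas the 8 h arrays overlapped both. The change was 0.41 at 8 h (adjusted p = 0.118), 0.87 at 24 h (SE 0.166, 1.83-fold, adjusted p = 0.000467) and 0.47 from 8 h to 24 h (adjusted p = 0.0389). That last call was lost on leaving out any of 4 of the 8 h replicates (1, 2, 4 and 5) or any of 3 of the 24 h replicates (1, 3 and 5), with adjusted p from 0.0564 to 0.108, and within each set of days. The 24 h call was lost on day 1 alone, where the change was 0.64 (adjusted p = 0.0757), and held within days 2 to 4 at 1.05 (adjusted p = 0.000564). By run the 24 h difference was 0.07 in run 2, and in runs 1, 3 and 4 it was at least 1.101 and at most 1.283. With run as a block, both TCF12 probe sets were called higher in the late step in place of 1, beside 18% of all probe sets. The correlation of the pair of TCF12 probe sets over the 14 arrays was −0.068. When they were averaged the 8 h change became 0.03 (adjusted p = 0.889) and the 24 h change 0.36 (adjusted p = 0.0114).

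**Figure D3:**
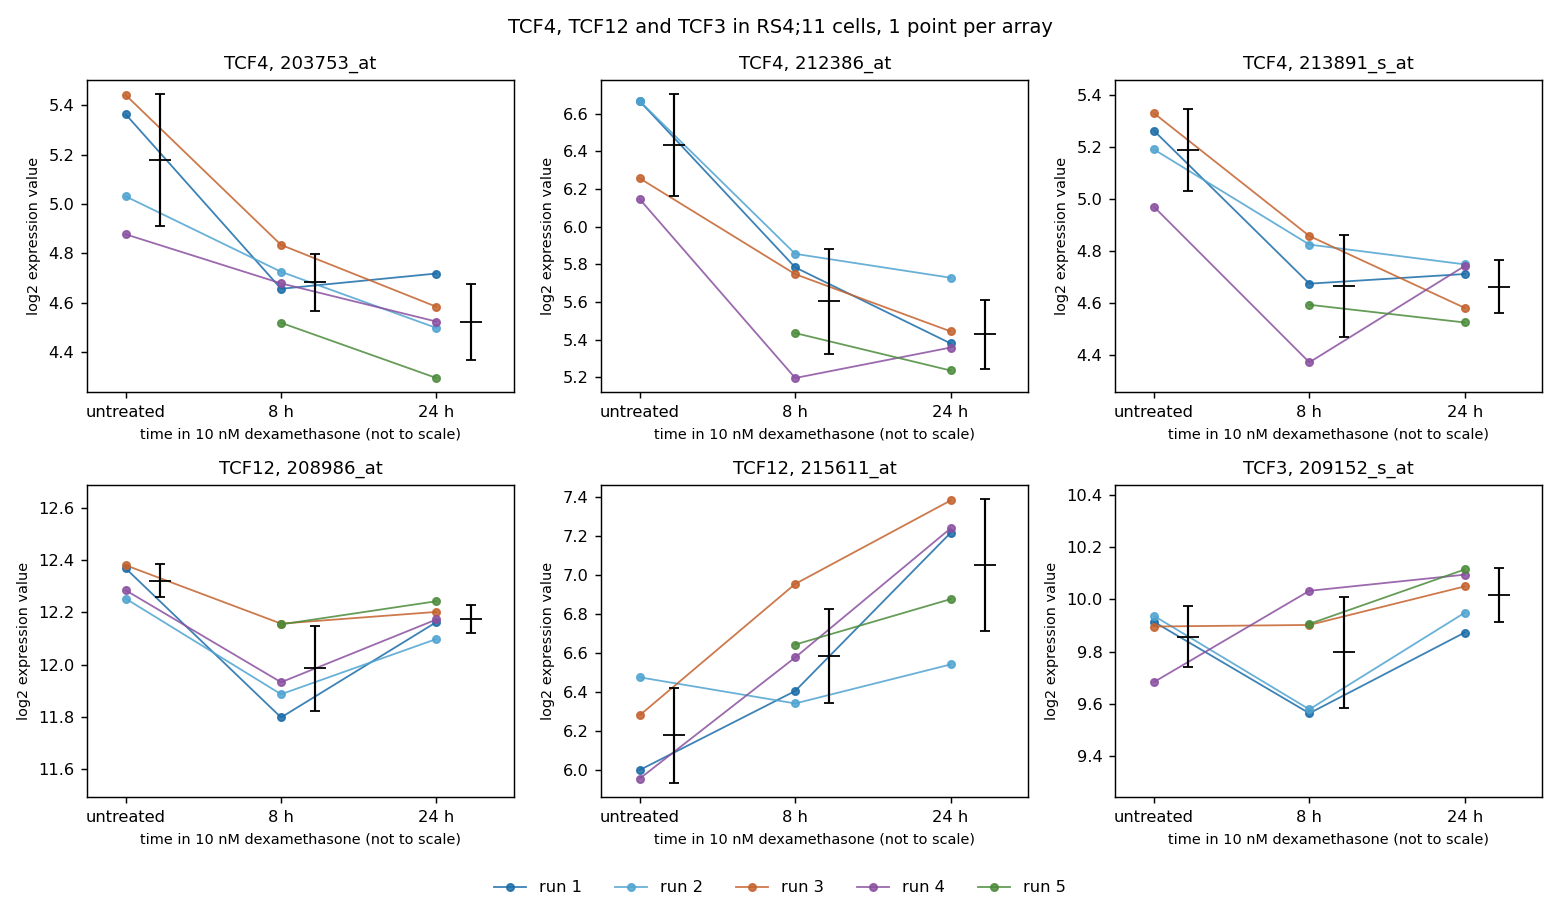
Log2 expression values on every array for the 3 brighter TCF4 probe sets, both TCF12 probe sets and 1 TCF3 probe set, with lines joining the arrays of a run and black bars at the mean ± SD of each group. Axis ranges differ between panels. All 3 TCF4 panels step down by 8 h, TCF12 208986_at dips at 8 h while 215611_at climbs to between 6.54 and 7.38 at 24 h, and TCF3 209152_s_at dips at 8 h in runs 1 and 2 only.

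TCF3 encodes E12 and E47 by alternative splicing and is the E protein without which early B-cell development does not start. Its 13 probe sets gave small changes. At 8 h, 1 was called higher and 0 lower (1 of each at an unadjusted p below 0.05 in limma), beside 7.75% and 9.13% of all probe sets. At that time 12 were not called, and the median change was −0.06. At 24 h, 2 were called higher and 0 lower (4 and 0 unadjusted), beside 18.5% and 18.6%, and the median was 0.11. From 8 h to 24 h, 2 were called higher and 0 lower (6 and 0 unadjusted), beside 13.3% and 11.7%. In that step 11 of 13 were above 0, with a median of 0.22 beside 0.01 over all probe sets. With run as a block the late count was 5 higher and 0 lower, beside 18% and 15.7% of all probe sets. With that block the 24 h count was 3 and 0, beside 21.7% and 22%, and the 8 h count 1 and 1, beside 11.2% and 13.3%. The group means of 11 of these probe sets reached 5 in at least 1 group.

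Those called need to be taken singly. Untreated replicates of 216645_at read 7.25, 6.96, 7.38 and 7.05. Those at 8 h read 7.43, 7.33, 7.73, 7.74 and 7.78 and those at 24 h read 7.68, 7.55, 7.63, 7.84 and 7.55. Only the 24 h arrays were all above the untreated range. The change was 0.44 at 8 h (adjusted p = 0.0106, limma), with 0.27 within day 1 (adjusted p = 0.169) and 0.53 within days 2 to 4 (adjusted p = 0.00826), and 0.49 at 24 h (SE 0.11, 1.4-fold, adjusted p = 0.00187).

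213811_x_at ranged from 11.60 to 11.80 without treatment, from 11.53 to 11.75 at 8 h and from 11.82 to 11.95 at 24 h, so that the 24 h arrays lay above all others by a narrow margin. Its change was 0.19 at 24 h (adjusted p = 0.0326) and 0.24 from 8 h to 24 h (adjusted p = 0.00744). The 24 h call was lost in 10 of 29 other settings, which included leaving out untreated replicate 3 or 4, or 24 h replicate 3, 4 or 5 (adjusted p from 0.0591 to 0.109), and giving every array the same median (0.14, adjusted p = 0.102). 210776_x_at changed by 0.22 from 8 h to 24 h (adjusted p = 0.0226), a call lost without 8 h replicate 1 or 2 or without 24 h replicate 3 or 4 (adjusted p from 0.0516 to 0.0642).

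Of the 10 TCF3 probe sets with no call, 209151_x_at had the largest change, −0.45 at 8 h with a 95% interval from −0.78 to −0.12 (adjusted p = 0.0575). Untreated arrays read 6.35, 6.31, 5.74 and 5.74, those at 8 h 5.83, 5.81, 5.42, 5.45 and 5.39, and those at 24 h 6.05, 6.29, 5.80, 5.92 and 5.70, so runs 1 and 2 stood above the others in all 3 groups. With run as a block it was called lower at 8 h (−0.43, adjusted p = 0.000437) and higher from 8 h to 24 h (0.37, adjusted p = 0.000467). The same block gave calls for 209153_s_at at 24 h (0.21, adjusted p = 0.0286) and in the late step (0.22, adjusted p = 0.0197), and for 215260_s_at in the late step (0.23, adjusted p = 0.0106). The remaining 7, which were 202648_at, 209152_s_at, 213730_x_at, 213731_s_at, 213732_at, 213809_x_at and 216647_at, changed by −0.16 to 0.26 in the 3 comparisons. Over all 78 pairs of TCF3 probe sets, r over the 14 arrays ran from −0.737 to 0.945 with a median of 0.138, against 0.704 for the TCF4 pairs.

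For 1 TCF3 probe set, 209152_s_at, the 8 h change differed between days. It read 9.91 and 9.94 in the untreated and 9.56 and 9.58 in the 8 h arrays of day 1, whereas on days 2 to 4 it read 9.90 and 9.68 in untreated and 9.90, 9.91 and 10.03 in 8 h arrays. Its change was −0.36 within day 1 (adjusted p = 0.0178) and 0.16 within days 2 to 4 (adjusted p = 0.242). The difference between these changes was 0.51 (SE 0.112, adjusted p = 0.025 for the interaction in limma). It was 1 of 26 members with such a call, a share near the 3.89% of all probe sets that had one. None of the 26 had one at 24 h or in the late step, where 0.734% and 0.0105% of all probe sets did. 202648_at and 210776_x_at also passed within day 1 at 8 h (−0.43 with adjusted p = 0.0358, and −0.29 with adjusted p = 0.0488) and not within days 2 to 4 (0.03 for each), but their interactions did not pass (adjusted p = 0.142 and 0.089). What differed between the days was not tested.

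**Figure D4:**
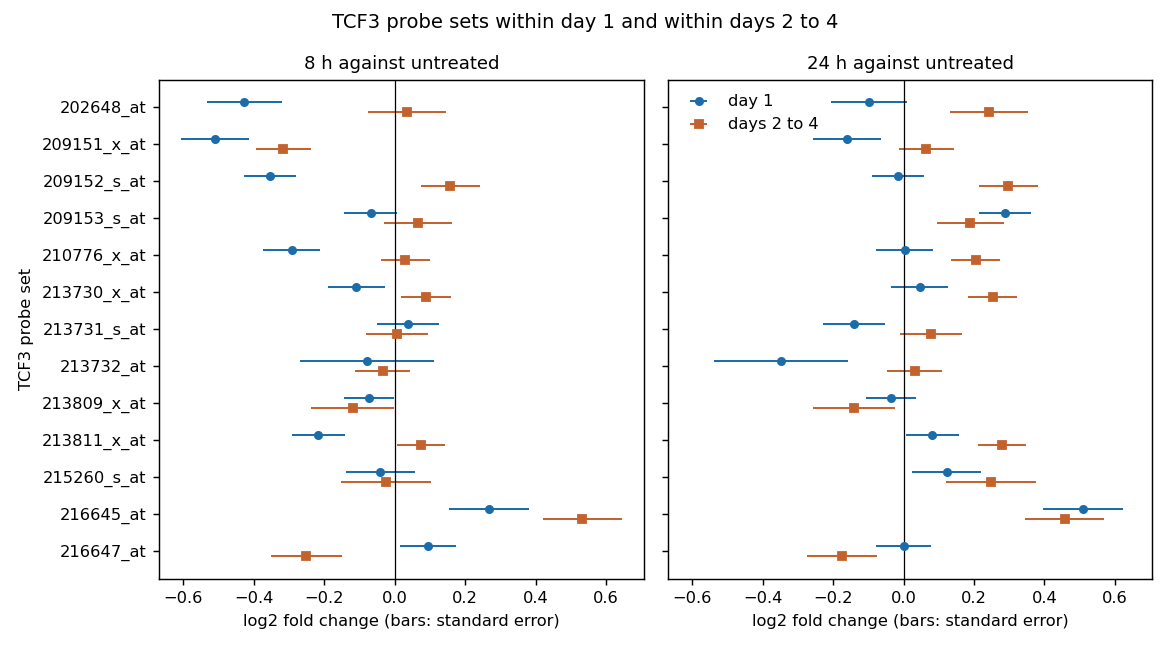
Log2 fold change of each TCF3 probe set at 8 h and at 24 h, fitted separately on day 1 (circles, 2 arrays a group) and on days 2 to 4 (squares, 3 treated and 2 untreated arrays), with bars of 1 standard error. At 8 h, 209152_s_at lies at −0.36 on day 1 and at 0.16 on the later days, and 216645_at lies right of 0 in both.

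The genes that E proteins are known to drive in the B lineage did not move together. Of 16 such genes, chosen with earlier results of these arrays known, 14 had a single-gene probe set, and the brightest was used for each. The shares given beside this list and the later lists cover all probe sets, dim ones included. When dim probe sets were removed before the fit, the shares were 12.5% higher and 14.8% lower at 8 h. At 24 h they were then 27.7% and 27.3%, and from 8 h to 24 h 21.1% and 18.7%. At 8 h, 3 were called higher, 4 lower and 7 were not called, beside 7.75% higher and 9.13% lower over all probe sets, with a median change of −0.19 beside −0.02 over all probe sets. VPREB3, a chaperone of the pre-B cell receptor, rose by 1.15 (SE 0.145, adjusted p = 2.98e-05), and BLNK, the adaptor downstream of that receptor, fell by 2.01 (SE 0.279, adjusted p = 7.6e-05). CD22, an inhibitory surface receptor, fell by 0.51 and RAG2, a subunit of the recombinase, fell by 0.57. FOXO1 and IL7R were called higher and DNTT lower at 8 h, and these 3 are named because their count was small.

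By 24 h, 7 of the 14 were called higher and 5 lower, beside 18.5% and 18.6%, and the median was 0.19. FOXO1, a transcription factor of early B cells, stood 1.33 above untreated cells (SE 0.108, adjusted p = 5.11e-08), VPREB3 stood 1.69 above (adjusted p = 9.7e-08) and CD79B, a signalling chain of the receptor, 0.98 above (adjusted p = 5.25e-07). BLNK stood at a change of −2.21 (adjusted p = 7.9e-06). In the step from 8 h to 24 h 8 genes were called higher and 1 lower, beside 13.3% and 11.7% of all probe sets. CD79B rose by 1.05 in that step after −0.07 at 8 h (adjusted p = 0.716 in limma for the latter).

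**Figure D5:**
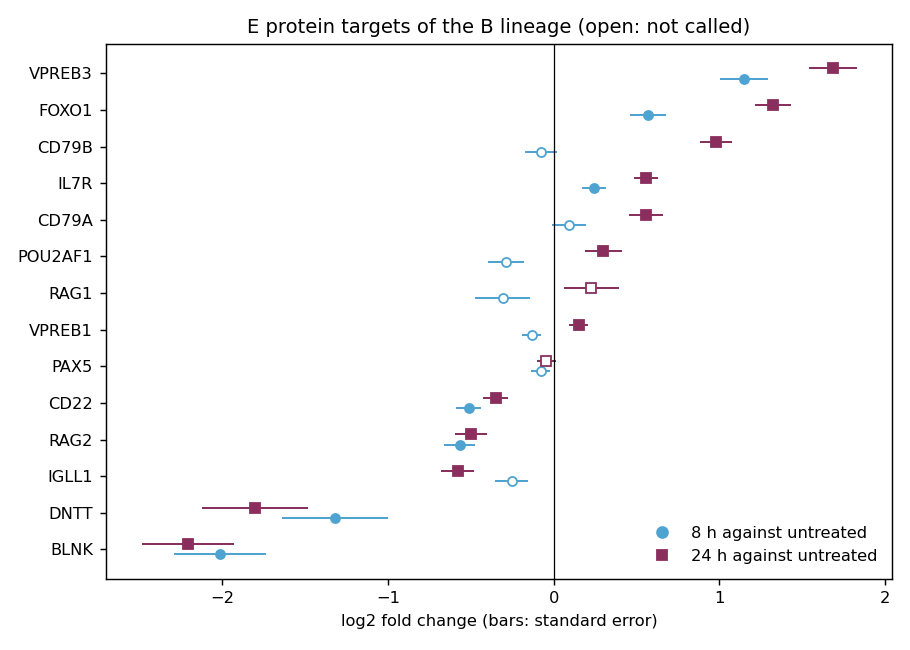
Log2 fold change at 8 h (circles) and 24 h (squares) for 14 B-lineage genes known as E protein targets, with bars of 1 standard error, ordered by the 24 h value. Filled symbols were called and open symbols were not. VPREB3 and FOXO1 lie farthest right, DNTT and BLNK farthest left.

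Of 10 measured helix-loop-helix partners and repressors, 1 was called lower at 8 h, beside 9.13% of all probe sets, and 2 at 24 h, beside 18.6%, with none higher (0 at an unadjusted p below 0.05 in limma). LYL1, a class II partner of E proteins, changed by −0.27 at 8 h (adjusted p = 0.0389) and −0.36 at 24 h (adjusted p = 0.00256), and HEY1, a repressor downstream of Notch, by −0.25 at 24 h (adjusted p = 0.0452). BHLHE41 was measured imprecisely, at −1.16 at 8 h with an SE of 0.649 (adjusted p = 0.283).

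Of 12 cofactors of E proteins, 2 were called higher and 3 lower at 8 h, beside 7.75% and 9.13% of all probe sets. At 24 h 6 were called higher and 3 lower, beside 18.5% and 18.6%. LMO2, the bridging protein of complexes of E proteins and TAL1, rose by 1.03 at 8 h (SE 0.086, adjusted p = 3.56e-07) and stood 1.50 above untreated cells at 24 h (adjusted p = 8.84e-10). KAT2B, an acetyltransferase, rose by 0.56 at 8 h and stood 1.24 above at 24 h, while its relative KAT2A gave −0.37 (adjusted p = 0.0367) and −0.97 (adjusted p = 3.62e-06). SKP2, a ubiquitin ligase subunit that acts in E protein turnover, changed by −0.28 at 8 h (adjusted p = 0.0372) and −1.30 at 24 h (adjusted p = 6.16e-09).

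Among 11 measured regulators of ID genes and ID proteins, 3 were called lower at 8 h, beside 9.13% of all probe sets, 5 at 24 h, beside 18.6%, and none higher (0 at an unadjusted p below 0.05 in limma). ATF3, a stress factor known to repress ID1, fell by 1.50 (SE 0.196, adjusted p = 4.27e-05) and MYC fell by 1.11 (SE 0.093, adjusted p = 3.45e-07) at 8 h. USP1, the deubiquitinase that stabilises ID proteins, changed by −0.14 at 8 h (adjusted p = 0.24) and −0.83 at 24 h (adjusted p = 1.23e-07). KLF10 was the third gene called at 8 h, with −0.45 (adjusted p = 0.0227).

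BMP and TGF-beta signalling is the best known input to ID genes, through SMAD1 and SMAD5 for BMP and SMAD2 and SMAD3 for TGF-beta. Of 14 measured receptors and SMADs, 5 were called higher at 8 h, beside 7.75% of all probe sets, and 6 at 24 h, beside 18.5%, with none lower (0 at an unadjusted p below 0.05 in limma). SMAD7, the inhibitory SMAD, rose by 2.32 at 8 h (SE 0.132, adjusted p = 3.61e-09) and stood 3.40 above untreated cells at 24 h. SMAD3 rose by 1.49 (adjusted p = 3.19e-06) and stood 2.14 above at 24 h, and TGFBR2, the type II receptor, stood 0.59 and 1.02 above. SMAD1 rose by 0.32 at 8 h (adjusted p = 0.00921) and stood 0.84 above at 24 h.

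Of 6 measured cell cycle inhibitors that E proteins are known to act on, 0 were called at 8 h (2 higher and 0 lower at an unadjusted p below 0.05 in limma), beside 7.75% higher and 9.13% lower of all probe sets. At 24 h 2 were called higher, 1 lower and 3 were not called, beside 18.5% and 18.6%. CDKN2D stood 0.97 above (adjusted p = 2.94e-06) and CDKN1B 0.52 above untreated cells (adjusted p = 0.000109), and CDKN1A changed by −0.44 (adjusted p = 0.0149).

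The probe sets whose values ran most like those of the members over the 14 arrays were sought among those that pass the variance filter. For ID2 201565_s_at they belonged to STIM1 (r = 0.985), CRMP1 and FAM53B (r = 0.982 for both), with changes of 1.14, 1.45 and 1.83 at 24 h. For ID3 they belonged to SLC39A4 (r = 0.985), NTHL1 (r = 0.977) and OSR2 (r = 0.975), with changes of −0.92, −1.01 and −0.97 at 8 h. The nearest to TCF4 212386_at were CAMKK2 (r = 0.965), MRPS34 (r = 0.948) and PRKRA (r = 0.946). For TCF12 208986_at they were PPFIBP1 (r = 0.926), ADARB1 (r = 0.916) and TRAM2 (r = 0.908), and for TCF3 209153_s_at PRRC2B (r = 0.953), RAB5B (r = 0.936) and GALNT2 (r = 0.933). The dim ID1 had lower values, with PCDHGA9 at 0.85, RPS6KA6 at 0.832 and TPRA1 at 0.824. The arrays share treatment and run, so such r describe these arrays and carry no test.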

How the data were processed

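RNA of RS4;11 cells had been hybridised to a human array of the hgu133a2 design, labelled by the Affymetrix protocol. The deposited log2 values were made by the authors with RMA in affy (versions not given in the sources used here), after 1 untreated array had been left out on quality grounds. Only the table of 14 arrays and 22277 probe sets was used, so scanner intensities and detection calls were not analysed here.

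Genes come from GEO's platform annotation: 19070 probe sets list 1 gene, 1043 several and 2164 none. limma 3.58.1 in R 4.3.3 was fitted to all 3 groups with group as the only term and no filter, with Benjamini-Hochberg adjustment over the 19070 and a threshold of 0.05. Values without a change are log2 levels, and SE and 95% intervals are from limma. Differences between ID genes were tested by exact permutation over arrays (Python 3.11.15). The number of arrays limits the precision, and p-values rest on how far these arrays differ among themselves, possibly for technical reasons. The fit was tested first on simulated data in which arrays varied independently. That simulation held no shared deviation of the arrays of a run.

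Arrays of the same run deviated together from their group means (r from 0.41 to 0.657 in 13 pairs). In 52 pairs from different runs r ranged from −0.584 to 0.618, and in 13 pairs of the same title number from 0.311 to 0.657. These ranges overlap. The labels give the arrays of a run a shared day, so run was taken to pair the arrays. For the member probe sets, the run block is given where it changes a call. Genes of the lists were looked at only in the fit without it. Alternatives covered a variance filter at the 0.5 quantile, removal of dim probe sets (below 5), gene means, other normalizations, blocks, array weights and each array left out.

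The members and gene lists were chosen with earlier results of these data known. All member probe sets are named. Genes named from a list come from the 4 of smallest adjusted p at 8 h or at 24 h, by their brightest probe set, with exceptions stated. For each member gene the 3 genes most correlated with its brightest probe set are named.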

Additional observations from a re-analysis of the deposited data

Results flagged for a closer look

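Of 78 groups of values (26 probe sets in 3 groups), 3 held a value far from the rest of its group by Dixon's criterion, which chance gives in about 1 of 20 groups. TCF3 209152_s_at was lowest in untreated replicate 4, at 9.683, with the nearest array at 9.896. TCF3 213731_s_at was also lowest in untreated replicate 4, at 4.644, with the nearest at 4.864. TCF3 213809_x_at was highest in 8 h replicate 3, at 6.17, with the nearest at 5.793. No value of ID1, ID2, ID3, TCF4 or TCF12 met the criterion.

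The 8 h change of TCF3 209152_s_at differed between sets of days by 0.512 (days 2 to 4 minus day 1, adjusted p = 0.025 for the interaction in limma), and was negative on day 1 and positive later. The low untreated replicate 4 is 1 of the 2 untreated arrays of days 2 to 4, and its part in this difference was not tested.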

How the results depend on the processing

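The calls of ID2 and ID3 kept their direction and their side of the threshold in every setting tried. Over the 28 called changes of the members, leaving out 1 array at a time gave 392 values, of which 364 kept the call and 28 lost it. Other settings gave 452 values, of which 419 kept the call, 31 lost it and 2 turned direction. Both of those were TCF12 208986_at at 8 h: 0.0347 with gene means and 0.41 with the variance filter and gene means, because the other TCF12 probe set then enters or replaces it. At 24 h the same settings gave 0.36 and 0.87 for TCF12. Under both settings 3 genes had a call at 8 h in place of 5. Over the 50 changes that were not called, 13 of 700 values gained a call on leaving out 1 array. In other settings 69 of 784 gained one in the same direction, and 2 with the direction turned, those of TCF12 at 24 h. At 24 h the probe sets called lower fell from 8 to 4 when dim probe sets were removed (19 of 26 left) and to 5 on day 1 alone, and those called higher rose from 5 to 8 on days 2 to 4.

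In the late step the count called higher, 5 as reported, was the least stable. It was 9 with run as a replicate block, 9 with the title number as a block, 10 with day as a block, 8 with run as a random block and 8 on day 1 alone. It was 3 with the variance filter (17 of 26 left), 3 at a threshold of 0.01 and 3 without run 5, a setting chosen after seeing the data, as was the interaction with day. Leaving out 1 array at a time gave 3 to 7. Over all 26 probe sets the run block moved no other count of calls by more than 1.5 times. By gene, it took the late count called higher from 2 to 5 for TCF3 and from 1 to 2 for TCF12. It also gave a call lower to 1 TCF3 probe set at 8 h and 1 TCF12 probe set at 24 h. Over all probe sets the same block took the late share called higher from 13.3% to 18%. Apart from the probe sets named here the cause of such changes was not tested. Dim signals limit ID1 and 4 TCF4 and 2 TCF3 probe sets, whose means stayed below 5.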

Other observations

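A probe set outside the rule, 213931_at, is annotated to both ID2 and its pseudogene ID2B, so its signal cannot be assigned to 1 of them. Its mean log2 level was 6.50 in untreated cells, 7.30 at 8 h and 8.73 at 24 h. The change was 0.80 at 8 h (SE 0.148, adjusted p = 0.00118, limma over 20113 annotated probe sets), 2.23 at 24 h (adjusted p = 5.74e-09) and 1.43 from 8 h to 24 h (adjusted p = 1.62e-06). By the annotation, no probe set of the other 5 members was shared with another gene. Whether any member probe set also reads transcripts of other genes was not tested.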
